A study of Mus musculus with 24 samples.

Results

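The genes that encode the proteins of the cytosolic ribosome were followed across 24 mouse tumours of a series on pancreatic ductal adenocarcinoma (PDAC). Members were the probe sets whose platform gene symbol has the form of a ribosomal protein gene name, that is Rpl or Rps with a number, an optional a, l, x or y, or the stalk names Rplp0 to Rplp2. This gave 59 genes of the 19505 genes with a symbol on the array, each with 1 probe set. RNA was measured with Clariom S arrays in 4 groups of 6 tumours: BMS754807 with hydroxychloroquine (called the combination), BMS754807 alone, hydroxychloroquine alone, and a control that received vector. BMS754807 blocks the kinases of the receptors for IGF1 (insulin-like growth factor 1) and insulin, and hydroxychloroquine raises the pH of lysosomes and so hinders the last step of autophagy. Doses, treatment times, mouse strain and age, and the site of the tumours are not stated by the labels used here. Nor do these tell whether the 6 tumours of a group grew in separate animals, so errors and p-values apply to these samples only.

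The ribosome consists of a small subunit, which reads the mRNA, and a large subunit, which joins the amino acids. Its proteins are made in equal amounts, and their mRNAs are among the most abundant of a cell. Many of these mRNAs begin with a C followed by a run of pyrimidines, the terminal oligopyrimidine (TOP) motif, through which the kinase mTOR, acting downstream of insulin and IGF1 receptors, sets how strongly they are translated. The arrays measure the amount of each mRNA and not its translation. In pieces of tumour, fewer cells of a type and less RNA per cell cannot be told apart.

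The bases around the annotated transcription start were searched for such a run, which was found there in some of these genes and not in others. A run that begins more than 5 bases from an annotated start is not counted. A gene without a counted run may therefore still have the motif in its mRNA. In Rpl5, for example, such a run lies further upstream of the annotated start. Annotated starts were not checked against the starts used in these tumours. Each line below gives 30 bases of RefSeq sequence on the build GRCm38.p6, with 15 before and 15 from the start on, 5′ to 3′ on the gene's strand, and capitals mark a run of a C followed by at least 4 bases that are C or T and beginning within 5 bases of the start. Rps6 is shown as the protein that S6 kinase phosphorylates, Rps18 as a common reference transcript, and Rpl15 for its long run. Rps26 and Rpl35a are shown as genes that varied widely between tumours. Rpl5 is shown as a gene with a narrow spread and no run counted, and Rpl3l, Rpl39l and Rpl10l as copies with low signal.
Rps6 (chr4:86857353-86857382, minus strand): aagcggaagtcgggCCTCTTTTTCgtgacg
Rps18 (chr17:33955651-33955680, minus strand): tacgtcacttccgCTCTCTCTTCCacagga
Rpl15 (chr14:18270972-18271001, minus strand): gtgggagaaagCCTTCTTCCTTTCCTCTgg
Rps26 (chr10:128626492-128626521, minus strand): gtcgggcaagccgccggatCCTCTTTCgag
Rpl35a (1 of 3 annotated starts, chr16:33056467-33056496, plus strand): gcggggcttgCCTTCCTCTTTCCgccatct
Rpl5 (chr5:107900513-107900542, plus strand): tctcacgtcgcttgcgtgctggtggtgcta
Rpl3l (1 of 2 annotated starts, chr17:24727811-24727840, plus strand): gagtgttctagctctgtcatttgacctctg
Rpl39l (chr16:10170213-10170242, plus strand): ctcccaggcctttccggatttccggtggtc
Rpl10l (chr12:66284387-66284416, minus strand): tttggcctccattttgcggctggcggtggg

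Start sequences were at hand for 46 of the 59 genes, and such a run stood at a start of 21 of them (45.65%), against 3397 of 15691 genes in the same table (21.65%). The run was found in 17 of 67 mitochondrial ribosomal protein genes (25.37%) and in 3 of 10 genes of translation factors. A second search looked for CCGGAAG, a core that Ets family proteins are known to bind, on both strands of the 300 bases from 250 before to 50 after the start. It was present in 19 of 46 ribosomal protein genes (41.3%), in 25 of 67 mitochondrial ribosomal protein genes (37.31%) and in 2077 of 15691 genes (13.24%). The reverse complement of CCGGAAG begins with CTTCC, which can itself form a pyrimidine run, so the searches can overlap, and a match describes the letters only. Rpl29, Rps14, Rps29, Rpl17, Rpl32, Rps20, Rpl7, Rplp1, Rps4l, Rpl36, Rpl3, Rpl21 and Rpl8 had no start sequence here.

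Values are log2 signals as deposited, so a difference of 1 is a change by a factor of 2. How bright a probe set is depends on its own probes as well as on its mRNA, so each gene is compared with itself across tumours, and near-identical copies such as Rpl32 and Rpl32l may share signal. The array medians lay between 6.79 and 7.03, and the SD over genes of an array between 3.902 and 4.002. All 12 measured markers of ductal epithelium averaged above the gauge of low signal described next in every group, and Krt7 averaged 17.02 in the combination, 16.83 under BMS754807, 16.81 under hydroxychloroquine and 16.82 in controls. Of 7 measured markers of pancreatic acini, 2 passed that gauge in each treated group and 3 in controls. A skeletal muscle score, the mean over 16 muscle genes of a tumour's deviation from each gene's mean, stood apart in 5 tumours: combination tumour 1 had 5.30, BMS754807 tumours 2 and 6 had 4.35 and 3.27, hydroxychloroquine tumour 5 had 6.44 and control tumour 5 had 4.00. The other 19 had scores of 0.67 or lower.

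A gauge of low signal was taken from 1445 genes of olfactory, vomeronasal and taste receptors, few of which are expressed outside sensory tissue. Their means had a median of 3.07 and a 95th percentile of 4.53. Of the 59 ribosomal protein genes, 55 had a mean above 10, from 10.98 for Rps27l to 17.59, namely 21 of the small subunit and 34 of the large subunit with its stalk. The other 4, the paralogs Rpl3l, Rpl39l, Rpl10l and Rps4l, had means between 3.11 and 5.86. That division at a mean of 10 was made after the values were seen and serves description only. Probe sets for Rplp2, Rps27a, Rpl13a, Rpl10 and Rps27 were not among the members.

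**Figure D1:**
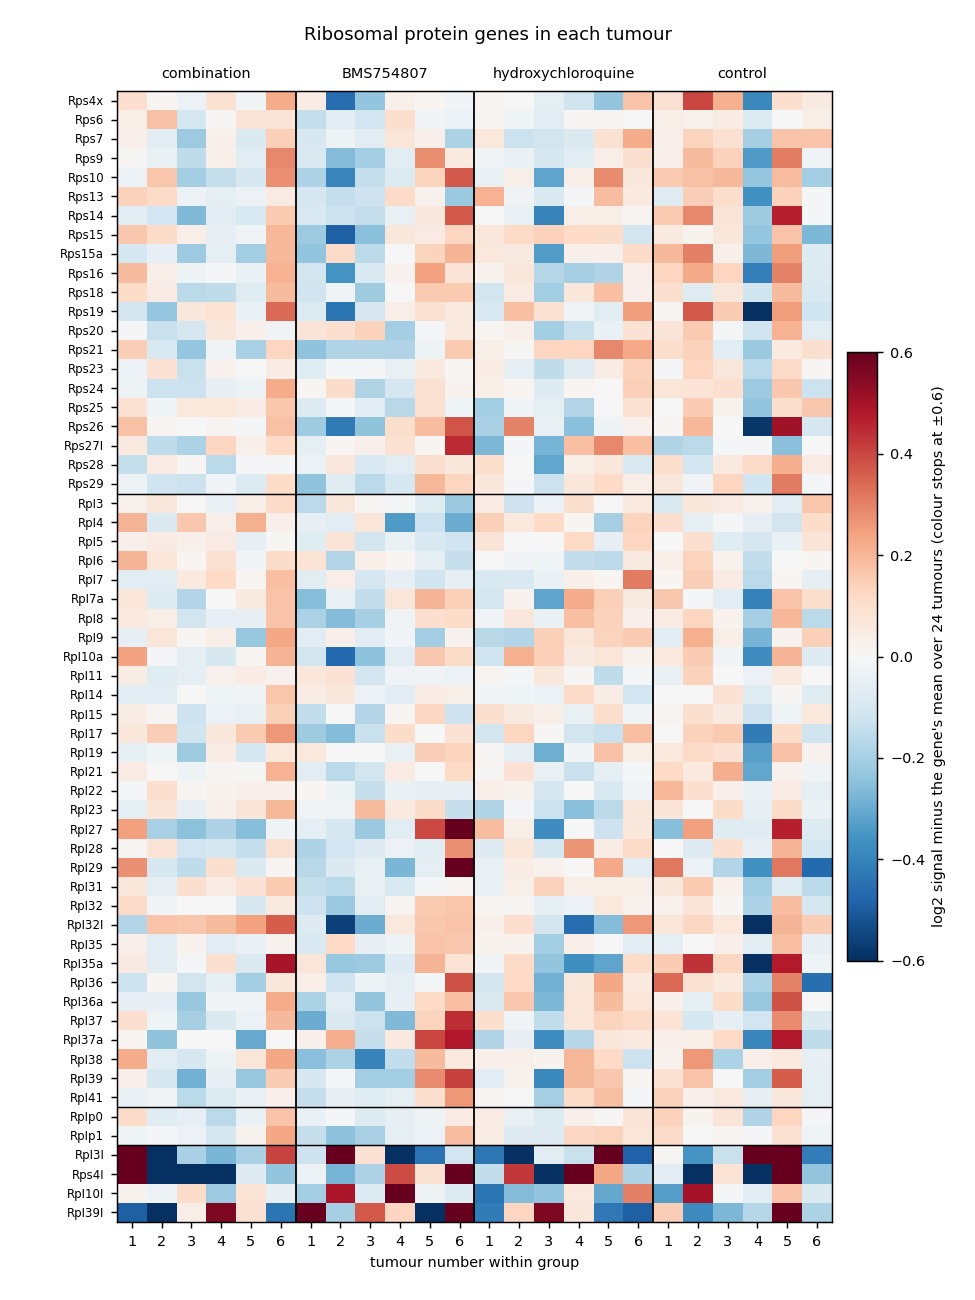
Deviation of each ribosomal protein gene (rows, small subunit above large subunit, stalk and low-signal paralogs) from its own mean over 24 tumours, in log2, for each tumour (columns, 6 per group). Colour columns run through most rows in control tumours 4 and 5 and combination tumour 6, and the 4 rows at the bottom vary most.

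The stalk carries elongation factors to the ribosome, and its base protein Rplp0 is a common reference transcript. Rplp0 ran from 16.41 through a median of 16.52 to 16.74 in the combination, from 16.49 through 16.54 to 16.62 under BMS754807, from 16.49 through 16.59 to 16.65 under hydroxychloroquine, and from 16.39 through 16.62 to 16.71 in controls. The control tumours held its lowest value and the combination its highest, and all groups overlapped. Its partner Rplp1 ran from 16.87 to 17.21 in the combination (median 16.96), from 16.73 to 17.16 under BMS754807 (16.88), from 16.90 to 17.11 under hydroxychloroquine (17.04) and from 16.95 to 17.09 in controls (16.98). Its control tumours lay within the range of every treated group. Against controls, Rplp0 differed by -0.037 ± 0.081 (SE) in the combination, by -0.057 ± 0.081 under BMS754807 and by -0.022 ± 0.081 under hydroxychloroquine.

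Rps6 is the small subunit protein that S6 kinase phosphorylates when mTOR is active. Its mRNA had values from 17.33 through a median of 17.49 to 17.61 in the combination, from 17.29 through 17.38 to 17.54 under BMS754807, from 17.37 through 17.44 to 17.45 under hydroxychloroquine and from 17.35 through 17.46 to 17.48 in controls. The combination and BMS754807 tumours reached above and below all controls, so the groups overlapped. The difference from controls was 0.035 ± 0.074 (SE, n = 6 tumours a group) in the combination with a 95% interval of -0.12 to 0.19, -0.053 ± 0.074 under BMS754807 with an interval of -0.21 to 0.10, and -0.018 ± 0.074 under hydroxychloroquine with an interval of -0.17 to 0.13. Rps18, a small subunit gene used as a reference transcript, had medians of 16.52 in the combination, 16.52 under BMS754807, 16.57 under hydroxychloroquine and 16.53 in controls. Its single tumours spread from 16.32 to 16.72, both ends reached in treated groups, and the groups overlapped throughout.

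Rpl5 and Rpl11, large subunit proteins that bind Mdm2 when ribosome assembly fails and so stabilise p53, had some of the narrowest spreads. Rpl5 ran from 16.65 through 16.73 to 16.75 in the combination, from 16.58 through 16.62 to 16.78 under BMS754807, from 16.65 through 16.74 to 16.83 under hydroxychloroquine and from 16.60 through 16.68 to 16.80 in controls. Rpl11 ran from 17.06 through 17.16 to 17.18 in the combination, from 17.02 through 17.11 to 17.22 under BMS754807, from 16.98 through 17.13 to 17.20 under hydroxychloroquine and from 17.09 through 17.13 to 17.27 in controls. In both genes every group overlapped every other. Their within-group SDs, pooled over the 4 groups, were 0.0685 for Rpl5 and 0.0674 for Rpl11, next to the smallest of all members, 0.0638 for Rpl22, a large subunit protein needed for T cell development in mice. Rpl22 ran from 16.74 to 16.85 in the combination, from 16.61 to 16.76 under BMS754807, from 16.65 to 16.79 under hydroxychloroquine and from 16.69 to 16.95 in controls. All 6 BMS754807 tumours and all 6 hydroxychloroquine tumours lay below its control mean, most of them within the control range and a few below the lowest control.

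Rpl3, which lies near the site where peptide bonds form, and Rpl39, which lines the exit tunnel, are the broadly expressed partners of 2 low-signal copies. Rpl3 ran from 16.42 to 16.58 in the combination (median 16.49), from 16.24 to 16.53 under BMS754807 (16.42), from 16.34 to 16.56 under hydroxychloroquine (16.48) and from 16.37 to 16.63 in controls (16.50). Rpl39, on the X chromosome, ran from 14.33 to 14.77 in the combination (median 14.54), from 14.41 to 15.03 under BMS754807 (14.56), from 14.23 to 14.81 under hydroxychloroquine (14.64) and from 14.41 to 14.98 in controls (14.66). The groups of both genes overlapped. Rps4x, also X-linked, ran from 15.65 to 15.91 in the combination (median 15.74), from 15.23 to 15.73 under BMS754807 (15.68), from 15.45 to 15.86 under hydroxychloroquine (15.66) and from 15.30 to 16.09 in controls (15.79). Its widest spread was in the control group, which enclosed all combination and hydroxychloroquine tumours.

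One linear model with a term per group was fitted to all genes with limma, and p was adjusted across all 19505 genes (Benjamini-Hochberg) with a threshold of 0.05. The method draws each gene's variance toward a value shared by all genes, so SEs, intervals and p do not rest on its own spread alone. For differences of members the median SE was 0.098, against 0.080 from each member's own SD. The same 6 control tumours serve all 3 comparisons with control. In the combination against controls, 0 of the 59 ribosomal protein genes passed, as did 0% of all genes, and 0 members had an unadjusted p under 0.05, against 5.06% of all genes. Under BMS754807 against controls, 0 of 59 passed (0% of all genes), with 0 members at an unadjusted p under 0.05 (5.88% of all genes). Under hydroxychloroquine against controls, 0 of 59 passed (0% of all genes), with 0 at an unadjusted p under 0.05 (4.81% of all genes). A limma F test for a difference among any of the 4 groups also passed 0 of 59 members (0% of all genes). There 0 members had an unadjusted p under 0.05 (7.21% of all genes), and the smallest, for Rps21, was 0.104 with an adjusted p of 0.764. As the shared variance raised the median SE of members, the shares over all genes, here and below, are not a like comparison. A trend and robust variance prior in limma gave an unadjusted p under 0.05 in 1 member under hydroxychloroquine and 2 in the F test. It gave 0 in the combination and 0 under BMS754807 against controls.

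In the combination against controls, 27 members were higher and 32 lower (48.3% of all genes were lower), with a median difference of -0.015 (all genes 0.0067). The 55 genes with a mean above 10 ran from -0.20 for Rps14 to 0.16 for Rpl32l. Rps14, a small subunit gene whose loss accounts for the anaemia of the 5q- syndrome in humans, had values from 14.56 through 14.75 to 14.98 in the combination and from 14.61 through 14.94 to 15.29 in controls. The groups overlapped, 5 of 6 combination tumours lay below the control mean, and the difference was -0.20 ± 0.12 (SE) with an adjusted p of 0.944 in limma. Rps28, a small subunit protein near the mRNA channel, differed by -0.12 ± 0.087. The smallest p among higher genes belonged to Rpl31 (0.098 ± 0.080) and Rpl17 (0.12 ± 0.11), which both sit near the exit of the peptide tunnel. Rpl31 ran from 17.23 to 17.44 in the combination and from 17.08 to 17.44 in controls, so the combination lay within the control range.

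Under BMS754807 alone, 12 members were higher and 47 lower than in controls (49.6% of all genes were lower), with a median of -0.053 (all genes 0.0017). Of the 55 genes, 46 were lower. In the small subunit 20 of 21 were lower (median -0.068), and in the large subunit and stalk 26 of 34 (median -0.047). Members within 1 tumour move together, as shown further on, so these counts are not 55 separate observations, and no gene among them passed the test. The median over the 59 was -0.091 without control tumour 4 and -0.029 without BMS754807 tumour 2, the ends of the range when each tumour was left out. Rps4x had the smallest p of the lower genes (-0.18 ± 0.12), with all 6 BMS754807 tumours below the control mean but inside the control range apart from 1 tumour at 15.23. Rpl4, a large subunit protein with an extension into the exit tunnel, followed with -0.13 ± 0.093, from 16.98 through 17.22 to 17.39 under BMS754807 and from 17.21 through 17.29 to 17.43 in controls.

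Rps27l, a paralog of Rps27 whose human and mouse genes are known targets of p53, had the largest positive difference of the 55 under BMS754807. It ran from 10.92 through a median of 11 to 11.43 under BMS754807 and from 10.73 through 10.89 to 10.98 in controls. All 6 BMS754807 tumours lay above the control mean, though the groups overlapped. The difference was 0.19 ± 0.11 (SE), with an adjusted p of 0.924 in limma. Hydroxychloroquine tumours ran from 10.70 through 11.07 to 11.27 and combination tumours from 10.79 through 11.02 to 11.11, so neither stood clear of the controls. The highest value, 11.43 in BMS754807 tumour 6, came from a tumour with a muscle score of 3.27 and the lowest array weight in limma, 0.419. The part of tissue content and array quality in this value was not tested.

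Under hydroxychloroquine alone, 24 members were higher and 35 lower than in controls (50% of all genes were lower), with a median of -0.018 (all genes 0). The 55 genes ran from -0.19 for Rps14 to 0.12 for Rps21. Rpl23, a further large subunit protein that binds Mdm2, ran from 17.15 through 17.25 to 17.47 under hydroxychloroquine and from 17.35 through 17.44 to 17.51 in controls. Of the 6 hydroxychloroquine tumours, 5 lay below the control mean, and the difference of -0.15 ± 0.084 (SE) had an adjusted p of 0.979 in limma. For Rps14 all 6 hydroxychloroquine tumours lay below the control mean, from 14.42 through 14.83 to 14.86, with a difference of -0.19 ± 0.12. Rps21, a small subunit protein needed for the last steps of rRNA processing, ran from 15.99 through 16.11 to 16.27 under hydroxychloroquine and from 15.76 through 16.06 to 16.12 in controls. Its groups overlapped, with a difference of 0.12 ± 0.098.

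**Figure D2:**
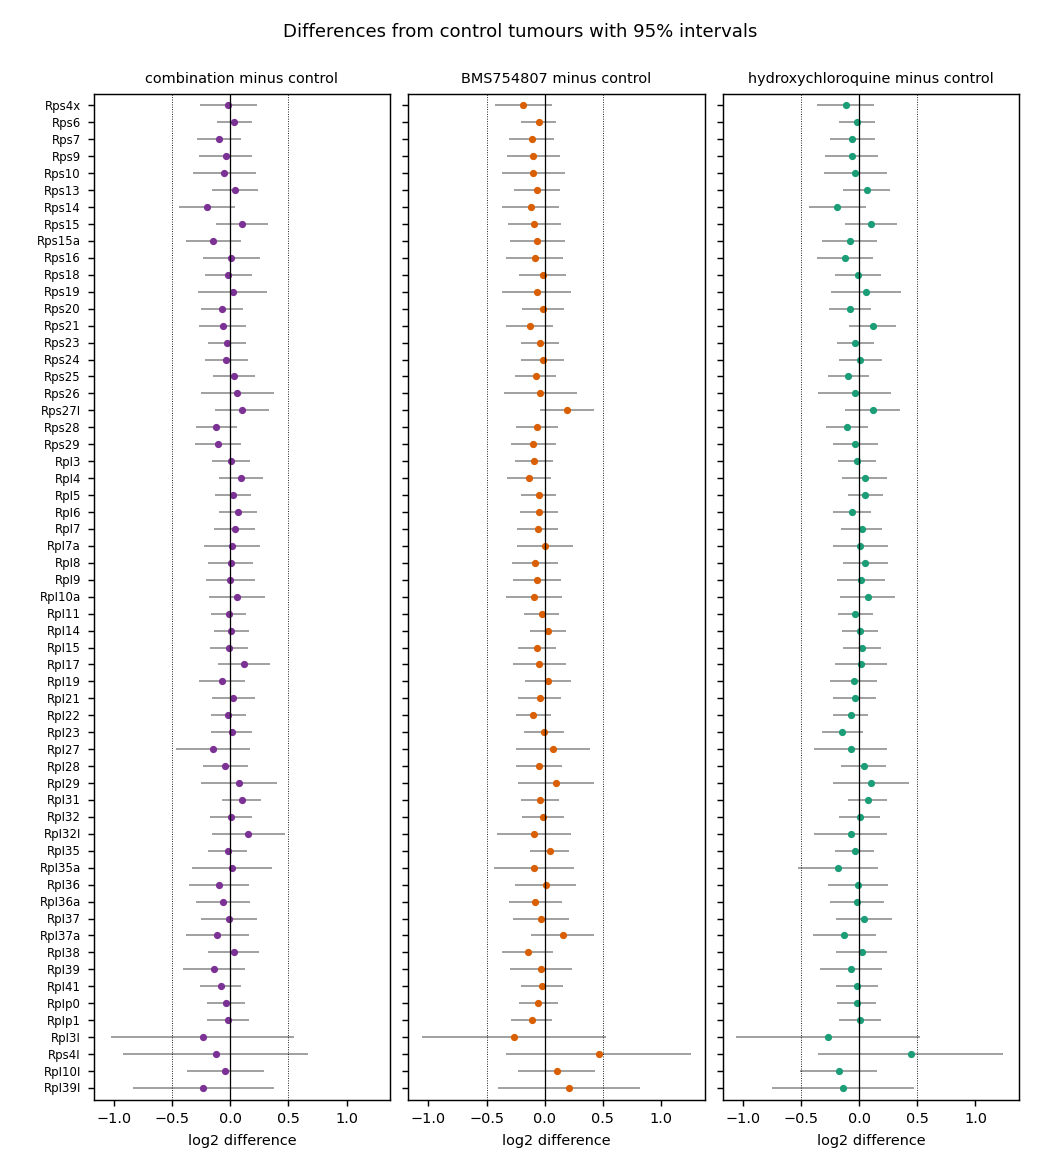
Difference of each ribosomal protein gene from the 6 control tumours (log2, limma estimate as a point, 95% interval as a line) in the combination, under BMS754807 and under hydroxychloroquine, with dotted lines at -0.5 and 0.5. All intervals cover 0, and only low-signal paralogs at the bottom and, under hydroxychloroquine, Rpl35a reach beyond the dotted lines.

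A p above the threshold does not show that levels were equal, so the intervals were read as well. The 95% interval lay wholly within 0.5 log2 of 0 in 56 of 59 members for the combination against controls (44.8% of all genes), in 56 for BMS754807 against controls (44.9%) and in 54 for hydroxychloroquine against controls (45.8%). Among the 55 genes with a mean above 10 the only one outside was Rpl35a under hydroxychloroquine, with a lower bound of -0.52. Rpl35a, a large subunit gene mutated in some people with Diamond-Blackfan anaemia, ran from 12.69 through 12.93 to 13.17 under hydroxychloroquine and from 12.27 through 13.20 to 13.53 in controls. Control tumour 4 alone held the low end. The range of 0.5 log2 was set as a description, and the bright signals of these genes carry a smaller spread than most genes on the array.

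The combination was then set against each single agent. Against BMS754807, 0 of 59 members passed (0% of all genes), and 39 were higher and 19 lower (50.4% of all genes were lower) with a median of 0.025 (all genes -0.0033). Rpl4 was the 1 member with an unadjusted p under 0.05 (8.61% of all genes). It ran from 17.23 through 17.41 to 17.53 in the combination and from 16.98 through 17.22 to 17.39 under BMS754807. All 6 combination tumours lay above the BMS754807 mean, yet the groups overlapped. The difference of 0.23 ± 0.093 (SE) had an adjusted p of 0.507 in limma. Rps15, at the head of the small subunit, differed by 0.19 ± 0.11 and Rpl37a, a zinc-binding large subunit protein, by -0.26 ± 0.13. For Rpl37a the combination ran from 13.97 through 14.27 to 14.28 and BMS754807 from 14.13 through 14.41 to 14.75.

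Against hydroxychloroquine, 0 of 59 members passed (0% of all genes) and 0 had an unadjusted p under 0.05 (5.39% of all genes), with 28 higher, 31 lower (48% of all genes were lower) and a median of -0.0083 (all genes 0.0083). Rpl23 was higher in all 6 combination tumours than the hydroxychloroquine mean (0.16 ± 0.084, adjusted p 0.902 in limma). Rpl6, a large subunit protein, differed by 0.13 ± 0.080 and Rps21 by -0.18 ± 0.098. The interaction, which asks whether the effect of BMS754807 differs in the presence of hydroxychloroquine, passed 0 of 59 members (0% of all genes) with 0 at an unadjusted p under 0.05 (5.05% of all genes). Here 42 estimates were positive and 17 negative (49.1% of all genes were negative), with a median of 0.042 (all genes 0.0067). That median was 0.017 without hydroxychloroquine tumour 3 and 0.084 without control tumour 4. The largest values among the named small subunit genes were 0.28 ± 0.17 for Rps4x, 0.20 ± 0.12 for Rps25 and -0.21 ± 0.16 for Rps27l. An interaction is less precise than a difference, and 47 of 59 intervals lay within 0.5 log2 of 0 (17.9% of all genes). For the combination this held in 53 of 59 members against BMS754807 (42.3% of all genes) and in 54 against hydroxychloroquine (44.3% of all genes).

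The spread between tumours of a group was small for most members. The median within-group SD was 0.139 over the 59 members and 0.134 over the 55 with a mean above 10, against 0.327 over all genes. Bright probe sets vary less on this array, as the plot of spread against signal shows, and 393 other genes with means between the quartiles of the member means (14.93 to 16.96) had a median SD of 0.153. Of the 55 genes, 32 had an SD below that value, though not all of the 55 have means between those quartiles. In classes of mean signal, the median SD was 0.214 for members and 0.184 for other genes between 13 and 15, 0.176 and 0.155 between 15 and 16, 0.119 and 0.134 between 16 and 17, and 0.103 and 0.118 between 17 and 18. Members were thus the more variable ones in the lower classes and the less variable ones in the upper classes, and these differences were not tested.

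Other gene sets gave a scale for these SDs. The 16 measured translation factors, which in part carry the TOP motif too, had a median SD of 0.119, the 76 mitochondrial ribosomal protein genes 0.248, and 11 common reference transcripts 0.219, from 0.0902 for Gapdh to 0.526 for Tfrc. In that order, their mean signals ran from 13.47 to 18.74, from 5.66 to 13.54 and from 10.03 to 18.14. These sets were thus not matched to the members for signal. Other genes with means between 11 and 13 had a median SD of 0.222. The 24 values of a gene spanned less than 1 log2 in 50 of 59 members and in 26.5% of all genes. The share was 85.75% in the 393 genes with means between the quartiles of the member means. These do not match the members outside the quartiles, such as the 4 low-signal paralogs, which all spanned more than 1 log2. The median SD of the 55 genes was 0.105 within the combination, 0.156 within BMS754807, 0.118 within hydroxychloroquine and 0.149 within controls. For the 393 genes it was 0.113 in the combination, 0.158 under BMS754807, 0.161 under hydroxychloroquine and 0.149 in controls. The 21 genes with a pyrimidine run counted at the start had a median SD of 0.140. The 22 of the 55 genes with a start sequence and no run counted had 0.131.

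**Figure D3:**
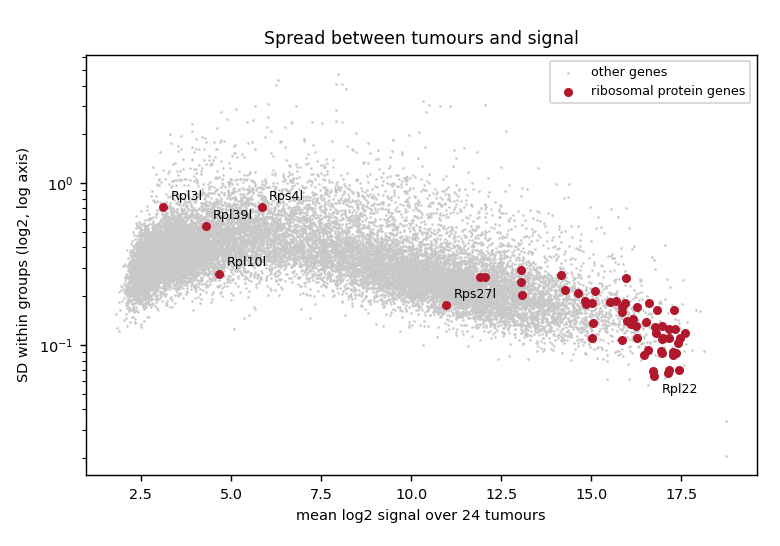
Within-group SD of each gene, pooled over the 4 groups (log2, on a log axis), against its mean log2 signal over 24 tumours, with ribosomal protein genes in red and all other genes in grey. Most members lie at means above 13 with an SD under 0.3, and Rpl3l, Rpl39l, Rpl10l and Rps4l lie among the dim genes.

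The members did not vary independently of each other within a tumour. For each tumour the deviation of each of the 55 genes from its own mean was taken, and the median over genes gave a joint shift. In control tumour 5 the shift was 0.17 and 48 of 55 genes lay above their means, whereas in control tumour 4 it was -0.20 and 52 of 55 lay below. In combination tumour 6 it was 0.16 with 51 above, and in BMS754807 tumour 3 it was -0.11 with 49 below. Control tumour 4 held the lowest of the 24 values in 19 of the 55 genes, and control tumour 5 the highest in 14. The widest joint shifts in both directions thus came from the same group.

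The 393 genes with means between the quartiles of the member means did not shift in step with the members. Of these, 41.5% lay above their means in control tumour 5, 44.8% in control tumour 4, 57.8% in combination tumour 6 and 59.0% in BMS754807 tumour 3. The joint shift averaged 0.012 ± 0.077 in the combination, -0.023 ± 0.090 under BMS754807, 0.0098 ± 0.054 under hydroxychloroquine and 0.028 ± 0.13 in controls (SD, n = 6 each). It ran from -0.058 through a median of -0.015 to 0.16 in the combination, from -0.11 through -0.055 to 0.090 under BMS754807, from -0.093 through 0.020 to 0.060 under hydroxychloroquine and from -0.20 through 0.058 to 0.17 in controls. The controls enclosed every other group. Control tumours 4 and 5 also had array SDs near the low end, 3.913 and 3.937, while that of combination tumour 6 was 3.999, and the part of the array SD in these shifts was not tested.

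**Figure D4:**
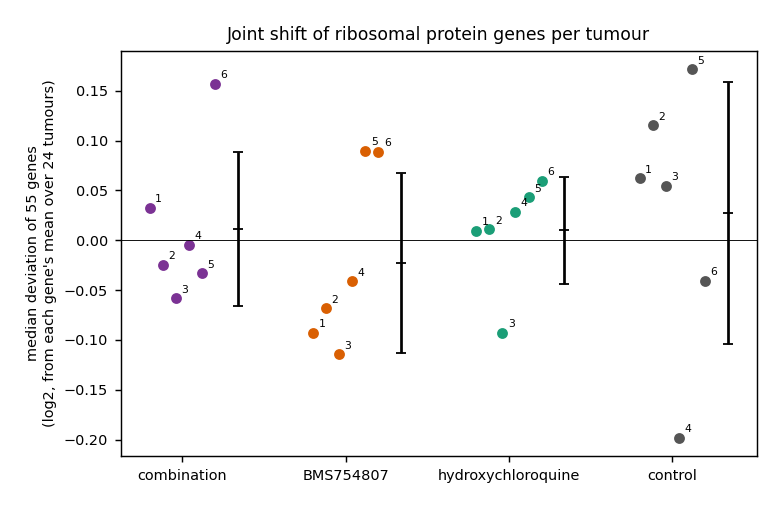
Joint shift of 55 ribosomal protein genes in each tumour (median deviation from each gene's mean over 24 tumours, log2), with tumour numbers beside the points and the group mean ± SD as bars. Control tumours 4 and 5 mark the lowest and the highest value, -0.20 and 0.17, and all groups overlap.

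Some genes were displaced beyond the joint shift. Rpl35a deviated from its mean by 0.49 in combination tumour 6 and by -0.79 in control tumour 4. Rpl29, a large subunit protein also known as a heparin-binding protein, was 0.80 above its mean in BMS754807 tumour 6. Rps26, a small subunit protein at the exit of the mRNA channel, was 0.51 above its mean in control tumour 5. In that tumour, where 48 of the 55 genes were high, Rps27l was the lowest of the 55 relative to its own mean, at -0.25.

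The 4 low-signal paralogs had the widest spreads, with a median SD of 0.624. Rpl3l is a copy of Rpl3 that striated muscle uses. It ran from 2.31 through 2.92 to 3.91 in the combination, from 2.06 through 3.00 to 4.33 under BMS754807, from 2.28 through 2.83 to 4.62 under hydroxychloroquine and from 2.70 through 3.05 to 4.30 in controls. The highest value of each group came from a tumour with a raised muscle score, namely combination tumour 1, BMS754807 tumour 2, hydroxychloroquine tumour 5 and control tumour 5. Hydroxychloroquine tumour 5, with the highest muscle score (6.44), was the only 1 of 24 above the gauge's 95th percentile of 4.53. BMS754807 tumour 6 had a muscle score of 3.27 and a Rpl3l value of 3.00, and control tumour 4 a score of -1.92 and a value of 3.99, so the pairing had exceptions. The part of muscle tissue in these values was not tested.

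Rpl39l and Rpl10l are copies known from male germ cells. Rpl39l ran from 3.40 through 4.10 to 4.86 in the combination, from 3.66 through 4.55 to 5.52 under BMS754807, from 3.81 through 4.13 to 4.86 under hydroxychloroquine and from 3.92 through 4.12 to 5.40 in controls. BMS754807 tumour 6 and control tumour 5 held its highest values. Of 8 testis markers, 0 averaged above the gauge in each of the 4 groups. Rpl10l ran from 4.45 to 4.78 in the combination, from 4.46 to 5.36 under BMS754807, from 4.23 to 4.97 under hydroxychloroquine and from 4.34 to 5.17 in controls, around the gauge's 95th percentile.

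Rps4l, annotated in RefSeq as a transcribed pseudogene and a copy of Rps4x, had the largest SD of all members (0.712). It ran from 5.04 through 5.39 to 6.55 in the combination, from 5.58 through 5.89 to 7.48 under BMS754807, from 5.17 through 5.90 to 7.71 under hydroxychloroquine and from 4.79 through 5.71 to 6.67 in controls. The 4 groups overlapped, and single tumours set the upper ends: combination tumour 1, BMS754807 tumour 6, hydroxychloroquine tumour 4 and control tumour 5. In that order, these had fibroblast scores of 0.47, 0.98, 1.46 and 0.76, macrophage scores of 0.32, 1.64, 0.91 and 1.24, and endothelium scores of -0.48, 1.46, 1.23 and 1.51, computed as for muscle. Combination tumour 1 thus lay low in endothelium where the other 3 lay high. Skeletal muscle scores in the same order were 5.30, 3.27, -2.01 and 4.00, low in hydroxychloroquine tumour 4 only. Ductal epithelium scores in that order were -0.32, -0.90, -0.85 and -0.78, all negative. BMS754807 tumour 5 also had an epithelium score of -0.90, with a Rps4l value of 5.95. The part of these cells in the Rps4l values was not tested. Its interaction estimate, -1.03 ± 0.54 (SE), was the largest among the members in size and had an adjusted p of 0.951 in limma.

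**Figure D5:**
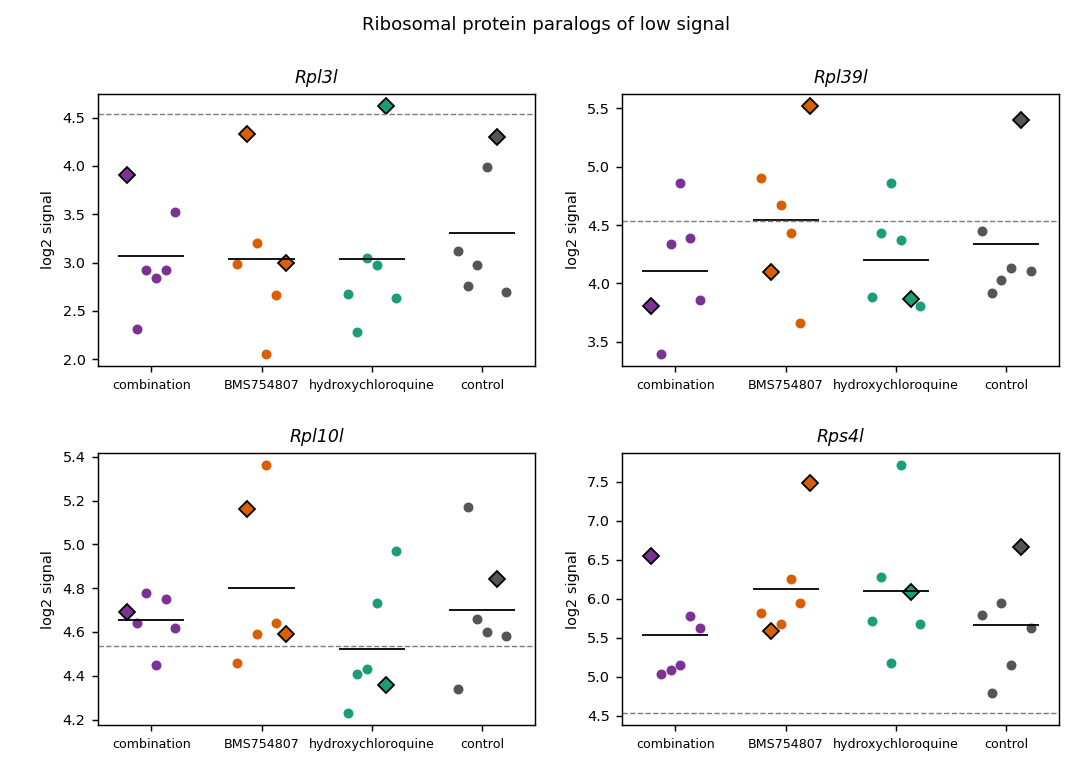
Log2 signal of Rpl3l, Rpl39l, Rpl10l and Rps4l in each tumour (points) with group means (lines) and the 95th percentile of the low-signal gauge, 4.53 (dashed). Outlined diamonds mark the 5 tumours with raised muscle scores, which hold the highest Rpl3l value of each group.

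Related gene lists were counted in the same fit. Of 7 ribosomal proteins whose names fall outside the symbol pattern, 5 were measured. In each treated group 4 of the 5 were lower than in controls, with 0 passing. Of all genes, 48.3% were lower in the combination, 49.6% under BMS754807 and 50% under hydroxychloroquine. Fau, the ubiquitin-like fusion of a small subunit protein, differed by -0.11 ± 0.10 in the combination, by -0.15 ± 0.10 under BMS754807 and by -0.12 ± 0.10 under hydroxychloroquine. Rpl7l1, a Rpl7 paralog, was the higher one each time. Among 16 of 18 translation factors measured, 0 passed in any comparison. Relative to controls 8 were lower in the combination (48.3% of all genes), 12 under BMS754807 (49.6%) and 9 under hydroxychloroquine (50%). Eif4b, an initiation factor and S6 kinase substrate, differed by -0.14 ± 0.099 under BMS754807. The 76 mitochondrial ribosomal protein genes had medians of -0.0058 in the combination, 0.053 under BMS754807 and -0.028 under hydroxychloroquine, with 0 passing. Under BMS754807, 46 of these were higher and 29 lower (50% and 49.6% of all genes), whereas most cytosolic members were lower. An unadjusted p under 0.05 in limma was reached by 2 of the higher and 2 of the lower ones (5.88% of all genes). Genes of 1 list may move together within a tumour, so such counts are not separate observations. The contrast between these lists was not tested.

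Of 22 regulators of ribosomal protein synthesis 21 were measured and 0 passed in any comparison. Under BMS754807 against controls, 2 of them had an unadjusted p under 0.05 (5.88% of all genes) and both were higher. Myc, a transcription factor that raises ribosome production, differed by 0.38 ± 0.15 (adjusted p 0.838 in limma), and Irs1, the adaptor of the insulin and IGF1 receptors, by 0.37 ± 0.12 (adjusted p 0.793 in limma). Maf1, a repressor of RNA polymerase III, differed by -0.28 ± 0.14 in the combination and by -0.30 ± 0.14 under hydroxychloroquine, with adjusted p of 0.944 and 0.979 in limma. Eif4ebp2, a repressor of the cap-binding factor eIF4E, had the smallest p of the list in any comparison, and differed by -0.50 ± 0.17 between the combination and BMS754807 (adjusted p 0.390 in limma), with an interaction of -0.55 ± 0.23 (adjusted p 0.951 in limma). It is named after its values were seen. Larp1, which binds the TOP motif, differed by 0.15 ± 0.099 under BMS754807, and the mRNA of Igf1r, a target of the inhibitor, by -0.018 ± 0.16. Of 12 p53 targets 11 were measured. Higher than in controls were 10 of them under hydroxychloroquine (49.6% of all genes), 6 under BMS754807 (50%) and 6 in the combination (51.4%), with 0 passing in each. Under BMS754807, 5 were lower, 1 of them with an unadjusted p under 0.05 in limma (5.88% of all genes). The lowest there was Trp53inp1, at -0.52.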

How the data were processed

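Total RNA of each tumour (250 ng) was hybridised to a Clariom S array, per the labels' protocols, and Transcriptome Analysis Console 4.0 is named in the submitters' processing notes. The deposited values of 22206 probe sets were taken as log2 signals scaled between arrays by the authors. The log base was inferred from their range of 1.45 to 19.0, and background correction, normalization, summarization and genome build were not given in the sources used here. Symbols came from the platform annotation, where 19572 probe sets had 1 symbol, 2634 none and 0 several. For each gene the probe set with the highest mean was kept, which left 19505 genes. All 59 member identifiers matched RefSeq with a current symbol.

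Groups came from the titles. One model with 4 group terms (20 residual degrees of freedom) was fitted with limma 3.58.1 in R 4.3.3 (lmFit, eBayes), two-sided, adjusted by the Benjamini-Hochberg method, and it was tested on simulated data with known differences. The members, lists and tests were chosen with earlier results of these data known. Named members were those with listed roles, the 3 largest and the 3 smallest SDs, and the 2 smallest p in each direction of each comparison, and Rpl15, Rpl29, Rpl35a, Rps26 and Rpl32l were added after their values were seen. Titles number the tumours 1 to 6 in each group. Of 36 same-numbered pairs 9 correlated above 0.1 (range -0.25 to 0.30), 5 of them among the 6 pairs of tumours numbered 3, and as not every pair did so, the numbers were not used as pairs. Alternatives covered scaling, probe set choice, a filter at a mean of 5, a replicate block, array weights, the variance prior, the groups in the fit, the muscle score and each array left out. Probe set choice could not change member values, as each member has 1 probe set. The replicate block, the variance prior and the groups in the fit could change errors and p but not differences. Arrays have no count depth, and their number limits the precision.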

Additional observations from a re-analysis of the deposited data

Results flagged for a closer look

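In groups of 6, a tumour was looked at again when its gap to the nearest other took a share of the group's range above Dixon's critical value. This held in 9 of 108 groups tested over the joint shift and the 26 genes named by role, SD or p. Chance gives about 1 in 20 where groups are unselected and independent. Some of these genes were named for their SD or p in the same values, and members move together within a tumour. The count thus cannot be read against that rate. The named genes that were added after their values were seen, Rpl29 and Rpl32l among them, were not searched. Under hydroxychloroquine, Rps14 was 14.42 in tumour 3 (others 14.78 to 14.86), Rps15 was 16.72 in tumour 6 (others 16.90 to 16.97), Rpl11 was 16.98 in tumour 5 (others 17.12 to 17.20) and Rpl3l was 4.62 in tumour 5 (others 2.28 to 3.05). The joint shift of the 55 genes was -0.093 in hydroxychloroquine tumour 3, where the other 5 tumours lay between 0.0096 and 0.060. In the combination, Rpl22 was 16.85 in tumour 2 (others 16.74 to 16.78). Under BMS754807, tumour 6 held 11.43 for Rps27l (others 10.92 to 11.07) and 7.48 for Rps4l (others 5.58 to 6.25). In controls, Rpl39l was 5.40 in tumour 5 (others 3.92 to 4.45). BMS754807 tumour 6, hydroxychloroquine tumour 5 and control tumour 5 are among the 5 with raised muscle scores, and the part of muscle tissue in these values was not tested.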

How the results depend on the processing

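Over 36 settings, 0 of 12667 differences of ribosomal protein genes, interactions included, had an adjusted p under 0.05 in limma. The 4-group F test is not among these and was not run in the setting with 2 groups only. It passed 0 members in each setting where it was run. Each of the 7 counts of passing genes thus stayed at 0. With the trend and robust variance prior, members at an unadjusted p under 0.05 numbered 0 in the combination, 0 under BMS754807 and 1 under hydroxychloroquine against controls, for the combination 4 against BMS754807 and 3 against hydroxychloroquine, for the interaction 3 and for the 4-group F test 2. Every group holds each tumour number, so a block on that number could not change the median differences (-0.053 for BMS754807 against controls). It gave a median SD of 0.137. Leaving out each tumour in turn gave medians from -0.056 to 0.012 for the combination, from -0.091 to -0.029 for BMS754807 and from -0.064 to 0.012 for hydroxychloroquine against controls, and a median SD from 0.130 to 0.142. The combination's median ran from 0.0020 (without combination tumour 6) to 0.066 (without BMS754807 tumour 6) against BMS754807 and from -0.028 to 0.013 against hydroxychloroquine, and the interaction's from 0.017 to 0.084. The interaction's median was 0.011 with quantile normalization and 0.073 with array medians subtracted. Without the 5 tumours of raised muscle score, an alternative chosen after seeing the data, the medians were 0.0040 for the combination, -0.034 for BMS754807 and -0.0020 for hydroxychloroquine against controls, and the median SD was 0.135. The median of the combination against hydroxychloroquine (-0.0083) changed sign to 0.033 with array medians subtracted, 0.0033 with the muscle score as covariate, 0.0040 without those 5 tumours and 0.013 with the array SD as covariate, the last 2 chosen after seeing the data; the cause was not tested. Signs of differences this small have no call behind them. With the filter at a mean of 5, 56 members remained.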
